A study of Mus musculus with 6 samples.

Results

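The data described here are the expression values of 32 genes that mark macrophages, monocytes and neutrophils, out of 19949 gene entries measured in mouse colon. The genes were taken from a named list and were sorted by known role: 11 of resident macrophages, 5 of monocytes and their integrins, 6 of neutrophils, 6 Fc receptors or partners that signal through an ITAM (an immunoreceptor tyrosine-based activation motif), and 4 shared more widely among leukocytes. All 32 had enough counts to be tested.

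RNA was sequenced from colon of BALB/c mice aged 6 to 8 weeks that drank 3% dextran sulfate sodium (DSS) for 3 days, which injures the gut epithelium. One group was STAT6-/-, with a disrupted gene for the STAT protein that answers the type 2 cytokines interleukin-4 and interleukin-13, and the other was wild type (WT). Each genotype had 3 libraries, all given DSS, so no value here describes an untreated colon. It is not given in the labels whether the 3 replicates of a genotype came from separate mice, so a p-value here weighs only the spread among samples, part of which may be technical. The labels' protocols speak of the proximal part of the intestine as well as of colon, and of a scraped luminal side.

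Myeloid cells are the phagocytes of the gut wall. Monocytes enter the colon from blood through the chemokine receptor CCR2, and many mature under the growth factor receptor CSF1R into resident macrophages that clear dying cells and bacteria. Neutrophils arrive from blood during acute injury, carry the S100A8 and S100A9 proteins in bulk, and are released from marrow under the cytokine G-CSF. In macrophages STAT6 switches on the gene program that type 2 cytokines call for. In bulk tissue a lower value can come from fewer cells of a type or from less RNA per cell, and these cannot be told apart.

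The libraries held 17122315 to 19555450 expected counts. Stat6, the disrupted gene (chromosome 10, 127642955 to 127660987, mm10), stood at 49.9, 38.5 and 53.2 CPM (a gene's counts relative to its library's total, scaled with TMM factors) in STAT6-/- replicates 1 to 3 and at 91.4, 104 and 88.7 in WT. It was 2.01-fold lower (edgeR adjusted p = 0.0134; exact two-sided permutation p = 0.1, the smallest that 3 against 3 can give), and the adjusted p was 0.0725 and 0.0721 without WT replicate 2 and 3. All STAT6-/- libraries had the profile of males and all WT libraries that of females, with Xist at 0.264 to 0.991 CPM against 352 to 545 and Ddx3y at 50.8 to 59.5 CPM against 0.0567 to 0.124, so genotype and sex cannot be told apart in any comparison below. STAT6-/- replicate 2 lay nearest to WT on the first principal component of all tested genes, at -21.7 against -85.6 and -68.7 for replicates 1 and 3. Epithelial markers were present in every library of this labelled colon tissue, with a summed level of 16505 to 28873 CPM over 10 genes.

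In all, 3 genes rose in the STAT6-/- colons and 1 fell. Cd14, the lipopolysaccharide co-receptor, rose 4.35-fold. Itgax, the integrin CD11c of macrophages and dendritic cells, rose 4.12-fold, and Laptm5, a lysosomal membrane protein of leukocytes, rose 4.05-fold. Ctss, the lysosomal protease cathepsin S that trims the invariant chain in antigen presentation, fell 1.58-fold. Read against the background of all tested genes, this was not a high share: 3 of 32 is 9.38%, while 11.4% of the 15066 tested genes were called higher, and 1 of 32 is 3.12%, while 11.5% of all genes were called lower (edgeR with p-values adjusted over all tested genes, called below 0.05), 22.9% in either direction. The genotypes did not overlap for these 4 genes, and the same held for 22.1% of all tested genes on the higher and 24.5% on the lower side.

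The fitted differences nevertheless lay mostly to the positive side. The log2 fold change was above 0 for 30 of the 32 genes, against 50.6% of all tested genes, and at least 1 for 19 of them (59.4%), against 12.2%. The median over the 32 was 1.18, against 0.01 over all tested genes. At an unadjusted p under 0.05, 14 of 32 genes passed (43.8%), which is close to the 40.3% of all tested genes. These shares describe the list and were not tested.

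**Figure D1:**
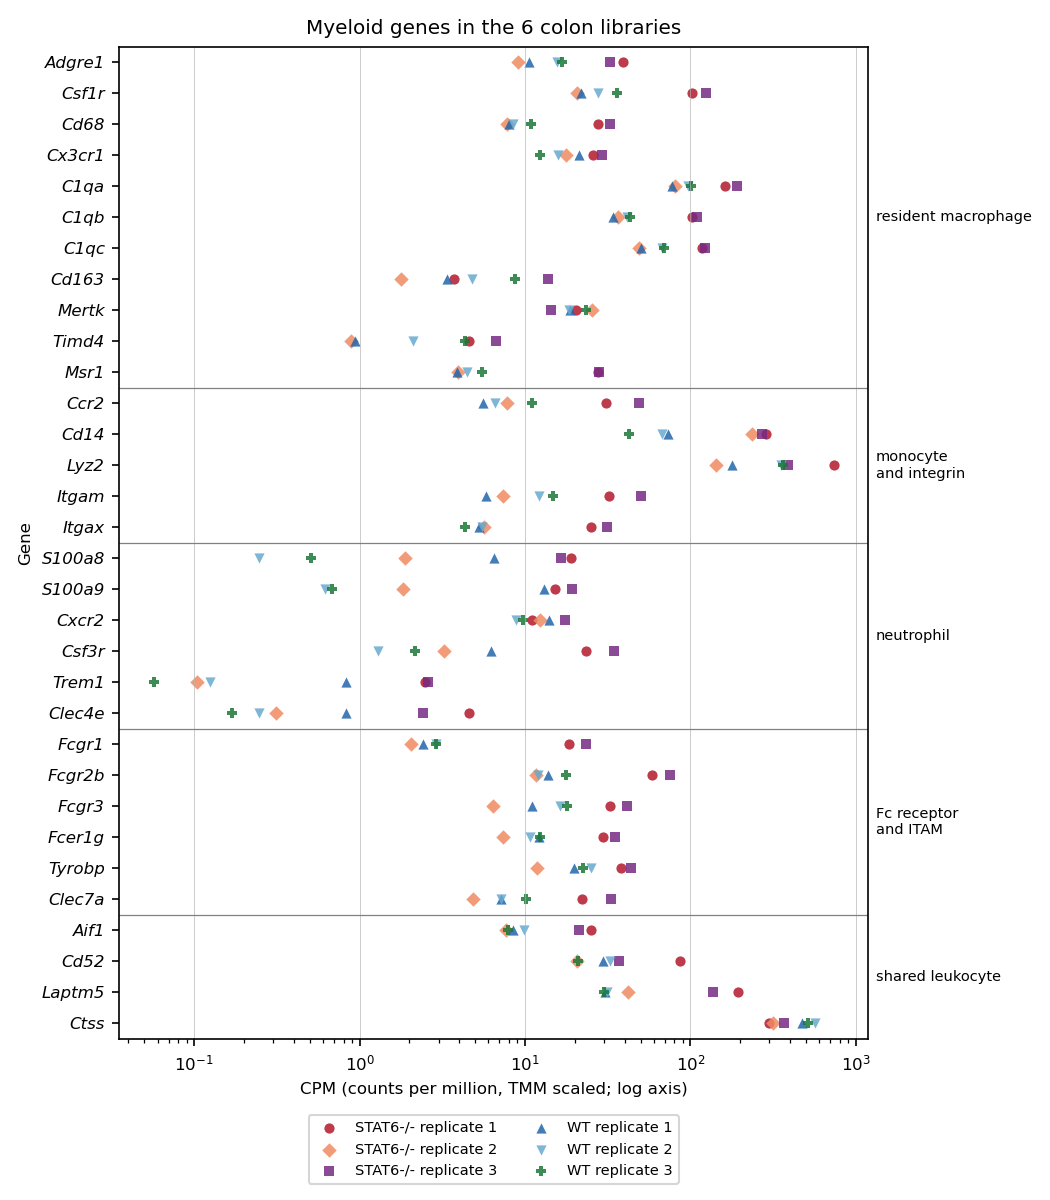
Level of each of the 32 genes in the 6 libraries, as CPM on a log axis, grouped by role. Circles and squares (STAT6-/- replicates 1 and 3) lie to the right of all WT symbols for 28 genes, while the diamonds (STAT6-/- replicate 2) do so for 4. Shares over all genes were not computed for these counts.

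The STAT6-/- libraries were far from alike in these genes. STAT6-/- replicates 1 and 3 both exceeded all 3 WT libraries for 28 of the 32 genes, but replicate 2 did so for only 4, namely Cd14, Itgax, Laptm5 and Mertk. All 3 STAT6-/- libraries exceeded all WT libraries for 3 genes (9.38%), against 22.1% of all tested genes. For 25 genes (78.1%) replicates 1 and 3 were above every WT library and replicate 2 was not, a pattern seen in 8.22% of all tested genes. Replicate 2 lay within the WT range for 12 genes (37.5%, against 22.0% of all tested genes) and below it for 16. It was the lowest of all 6 libraries for 15 genes, whereas replicate 3 was the highest for 22 and replicate 1 for 8. Shares over all genes were not computed for the counts of 28, 4 and 16 or for these ranks. This pattern was noticed in the data and was not tested.

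Leaving out STAT6-/- replicate 2 raised the calls from 3 to 22 genes higher, with Ctss still lower, against 17.9% and 15.9% of all genes tested in that fit. The median log2 fold change of the 32 was then 1.61, against 0.03 over all genes. Replicate 2 was the lowest library for 15 of the 32 genes, so leaving it out favoured such calls. The comparison with all genes in that fit is therefore no independent support. Leaving out STAT6-/- replicate 1, STAT6-/- replicate 3 or WT replicate 1 left Cd14 as the only gene called higher, against 6.81%, 12.5% and 4.25% of all genes, and Ctss was called lower in the fit without STAT6-/- replicate 3 but not in the other two (4.94%, 10.1% and 4.87% of all genes lower). Leaving out WT replicate 2 or WT replicate 3 left 0 of the 32 called by edgeR, with 5 and 7 at an unadjusted p under 0.05. In those fits only 0.136% and 0.0779% of all genes were called higher and 0.0645% and 0.0390% lower, although 28.2% and 27.8% had an unadjusted p under 0.05. DESeq2 on all 6 libraries called 12 of the 32 higher and Ctss lower, against 18.1% and 16.0% of all genes. With limma-voom, with limma on log2 FPKM plus 1 and with trends on GC content and length removed, Cd14 was the only one of the 32 called higher, against 9.60%, 10.4% and 8.19% of all genes. Ctss was called lower in both limma fits (12.2% and 9.80% of all genes) but not with the trends removed (6.94%). With no filter on low counts 3 of the 32 were called higher and 0 lower by edgeR (8.55% and 7.23% of all genes), with 15 of the 32 at an unadjusted p under 0.05.

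Cd14 (chromosome 18, 36725064 to 36726815) stood at 287, 236 and 271 CPM in STAT6-/- replicates 1 to 3 and at 72.8, 67.3 and 42.4 CPM in WT replicates 1 to 3. All 3 STAT6-/- libraries were thus far above all 3 WT libraries, replicate 2 included. The log2 fold change was 2.12 ± 0.24 (SE; edgeR adjusted p = 0.00965). It ran from 1.91 to 2.26 over the 16 alternatives and was called in 14 of them, the adjusted p being 0.0613 and 0.0606 without WT replicate 2 and WT replicate 3.

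Itgax (chromosome 7, 128129526 to 128150657) stood at 25.2, 5.64 and 31.2 CPM in STAT6-/- and at 5.25, 5.46 and 4.36 in WT. The groups did not overlap, but replicate 2 was only just above the highest WT library. Laptm5 (chromosome 4, 130912890 to 130936148) stood at 194, 42.2 and 137 CPM in STAT6-/- and at 30.6, 31.3 and 30.2 in WT. Again the groups did not overlap, and replicates 1 and 3 were far above replicate 2. Itgax had a log2 fold change of 2.04 ± 0.58 (SE; edgeR adjusted p = 0.0455) and Laptm5 one of 2.02 ± 0.50 (SE; edgeR adjusted p = 0.0310), and each was called in 7 of 16 alternatives. Among the others, neither was called without STAT6-/- replicate 1 or 3 or any single WT library. Nor was either called with limma-voom, log2 FPKM plus 1, the replicate number as a block, or trends on GC content and length removed.

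Ctss (chromosome 3, 95526786 to 95556405) stood at 300.1, 318 and 366 CPM in STAT6-/- and at 472, 567 and 513 in WT. Every STAT6-/- library was lower than every WT library, and the 3 replicates of each genotype were close together. The log2 fold change was -0.66 ± 0.17 (SE; edgeR adjusted p = 0.0369), and it was called in 9 of 16 alternatives. With trends on GC content and length removed it was -0.22 (edgeR adjusted p = 0.428). The edgeR adjusted p was 0.0502 with no filter on low counts and 0.0662 with the replicate number as a block. It was 0.0903 without STAT6-/- replicate 1, and 0.0863, 0.141 and 0.120 without WT replicates 1, 2 and 3. Per transcript length, Ctss was among the most abundant of the 32 genes, with a mean of 312 FPKM over the 6 libraries, next to 353 for Lyz2.

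**Figure D2:**
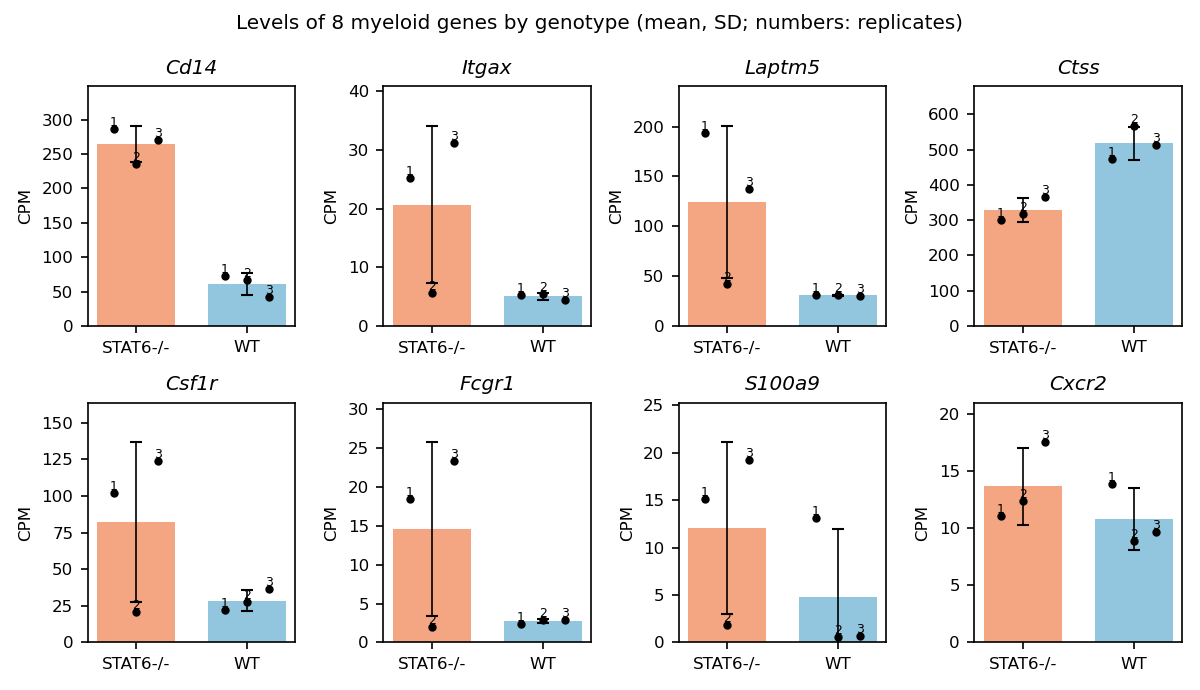
CPM of 8 of the genes by genotype: bars are means of 3 libraries, error bars are SD, and dots are single libraries numbered by replicate. The groups do not overlap for Cd14, Itgax, Laptm5 and Ctss. For Csf1r and Fcgr1 STAT6-/- replicate 2 lies below the WT libraries, and for S100a9 WT replicate 1 lies near the high STAT6-/- libraries.

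Sequences before an annotated start are shown for Laptm5, Itgax and Ctss, 3 of the 4 called genes. STAT6 and the myeloid regulator PU.1 both bind short DNA motifs in such regions of many genes. RefSeq promoter entries (GRCm38.p6) were matched for 25 of the 32 genes (not for Cd14, Csf1r, Adgre1, Msr1, C1qa, Tyrobp and Cd52), and the 250 bases before each start were searched on both strands. Capitals mark the PU.1 core GAGGAA, the interferon-type STAT element TTCNNNGAA and the STAT6-type element TTCNNNNGAA, or their reverse complements. Csf3r and Fcgr1 are added as a neutrophil and an Fc receptor gene that were called when STAT6-/- replicate 2 was left out. The regions are chr4:130913066-130913315 (plus strand) for Laptm5, chr7:128129300-128129549 (plus) for Itgax, chr3:95526536-95526785 (plus) for Ctss, chr4:126024409-126024658 (plus) for Csf3r and chr3:96293970-96294219 (minus) for Fcgr1. The start used is that of a promoter entry, which is not always the outer end of the gene. For Laptm5 and Csf3r the windows lie inside the gene spans, which begin at 130912890 and 126023441. The Itgax window runs past the first base of its gene, 128129526. Only the Ctss and Fcgr1 windows lie wholly outside the gene.
Laptm5: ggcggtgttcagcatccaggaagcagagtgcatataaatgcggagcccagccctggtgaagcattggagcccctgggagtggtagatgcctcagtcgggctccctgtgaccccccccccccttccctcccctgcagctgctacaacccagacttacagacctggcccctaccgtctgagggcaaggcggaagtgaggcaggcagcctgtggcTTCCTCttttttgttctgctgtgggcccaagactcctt
Itgax: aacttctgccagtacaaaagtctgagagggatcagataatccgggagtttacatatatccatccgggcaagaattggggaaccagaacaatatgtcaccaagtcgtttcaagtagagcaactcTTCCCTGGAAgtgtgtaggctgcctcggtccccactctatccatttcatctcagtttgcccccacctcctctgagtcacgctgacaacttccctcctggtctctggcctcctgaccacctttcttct
Ctss: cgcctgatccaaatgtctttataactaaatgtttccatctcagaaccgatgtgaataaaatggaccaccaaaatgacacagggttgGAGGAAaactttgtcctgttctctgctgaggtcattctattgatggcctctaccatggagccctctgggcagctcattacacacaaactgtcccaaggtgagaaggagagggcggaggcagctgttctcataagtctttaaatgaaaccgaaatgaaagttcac
Csf3r: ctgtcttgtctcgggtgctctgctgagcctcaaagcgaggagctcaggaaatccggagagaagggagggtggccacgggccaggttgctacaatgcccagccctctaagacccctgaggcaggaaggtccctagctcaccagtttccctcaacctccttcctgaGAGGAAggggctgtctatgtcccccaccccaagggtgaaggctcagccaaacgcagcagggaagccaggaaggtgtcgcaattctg
Fcgr1: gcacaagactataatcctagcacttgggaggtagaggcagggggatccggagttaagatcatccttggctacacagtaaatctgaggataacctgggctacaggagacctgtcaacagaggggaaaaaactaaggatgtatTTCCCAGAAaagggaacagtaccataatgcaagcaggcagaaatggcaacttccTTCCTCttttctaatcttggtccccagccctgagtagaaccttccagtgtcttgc

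The PU.1 core was found in 15 of the 25 gene promoters (60.0%), among them Laptm5 and Ctss, which moved in opposite directions, and in 25.9% of the 27025 genes in the table. The median GC content of these windows was 49.6% for the 25 genes and 52.0% for all. The interferon-type element was found in 2 (8.00%, Trem1 and Fcgr1), against 8.13% of all genes, and the STAT6-type element in 2 (8.00%, Itgax and Clec7a), against 6.76%. The 3 motifs did not overlap in the windows printed. A match says only that the letters are there.

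Among the resident macrophage genes 0 of 11 passed the edgeR test with all libraries, 4 had an unadjusted p under 0.05, and the median log2 fold change was 0.72. Over all tested genes 40.3% had an unadjusted p under 0.05 in edgeR. DESeq2 called 4 of the 11 higher (Csf1r, Cd68, C1qb and Msr1), against 18.1% of all genes. C1qa, a chain of the complement protein C1q that macrophages make in bulk, was the most abundant of the 11 per length (111 FPKM on average). It stood at 162, 80.7 and 192 CPM in STAT6-/- and at 77.0, 96.2 and 101 in WT. The neighbouring C1qb and C1qc, which lie beside it on chromosome 4, had the same order of STAT6-/- libraries, with C1qb at 102, 36.5 and 109 CPM against 33.9, 41.3 and 43.4, and C1qc at 117, 48.7 and 123 against 50.0, 67.3 and 69.7. For all 3 chains replicates 1 and 3 were above every WT library and replicate 2 was below or at the low end of the WT libraries.

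Msr1, a scavenger receptor for modified lipoproteins, had the largest log2 fold change of the resident macrophage genes. It stood at 27.6, 3.91 and 28.0 CPM in STAT6-/- and at 3.89, 4.46 and 5.50 in WT (log2 fold change 2.10 ± 0.67, edgeR adjusted p = 0.0623). Csf1r, the receptor on which macrophage survival depends, stood at 102, 20.5 and 124 CPM against 21.9, 27.6 and 36.2 (log2 fold change 1.52 ± 0.59, edgeR adjusted p = 0.103). Adgre1, which encodes the F4/80 antigen, and Cd68, a lysosomal glycoprotein, had log2 fold changes of 0.92 ± 0.50 and 1.30 ± 0.49. In these 4 genes replicates 1 and 3 were above every WT library, and replicate 2 was below the WT libraries or, for Msr1, at their lower end.

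Another 4 macrophage genes were called neither with all libraries nor without STAT6-/- replicate 2. Mertk, the receptor tyrosine kinase by which macrophages engulf dying cells, had the smallest difference, with 20.4, 25.3 and 14.3 CPM in STAT6-/- and 18.6, 18.5 and 23.5 in WT (log2 fold change -0.02 ± 0.24, edgeR adjusted p = 0.965). Here replicate 2 was the highest and replicate 3 the lowest of all libraries, the reverse of the usual order, and the sign of the change differed between scalings. Cx3cr1, the fractalkine receptor of gut macrophages, stood at 25.8, 17.8 and 29.4 CPM against 21.2, 15.8 and 12.4. Cd163, the haemoglobin scavenger receptor, stood at 3.73, 1.77 and 13.8 CPM against 3.36, 4.77 and 8.73, and Timd4, a receptor for phosphatidylserine on long-lived macrophages, at 4.57, 0.887 and 6.66 against 0.943, 2.11 and 4.31. In Cx3cr1 and Timd4 replicates 1 and 3 were above every WT library, whereas in Cd163 replicate 3 was above, replicate 1 within and replicate 2 below the WT range. Without STAT6-/- replicate 2 the other 7 of the 11 genes were called higher, against 17.9% of all genes in that fit. Replicate 2 was far below replicates 1 and 3 in these 7 genes, so leaving it out favoured such calls. None of the 7 was called by edgeR with any other single library left out.

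Of the 5 monocyte and integrin genes, Cd14 and Itgax rose (11.4% of all tested genes were called higher), and the median log2 fold change was 1.92. DESeq2 called Ccr2, Cd14 and Itgax higher, against 18.1% of all genes. Ccr2, the receptor that brings monocytes out of the blood, stood at 31.0, 7.77 and 49.2 CPM in STAT6-/- and at 5.60, 6.57 and 11.1 in WT (log2 fold change 1.92 ± 0.63, edgeR adjusted p = 0.0673). Itgam, the CD11b integrin of monocytes and neutrophils, stood at 32.4, 7.36 and 50.6 CPM against 5.78, 12.2 and 14.8 (log2 fold change 1.46 ± 0.67, edgeR adjusted p = 0.148). For both, replicate 2 lay within the WT range. Itgam and Itgax are neighbours on chromosome 7, 11035 bases apart.

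Lyz2, lysozyme of macrophages and neutrophils, was the most abundant of the 5 per length (353 FPKM) and had the smallest log2 fold change among them (log2 fold change 0.50 ± 0.57, edgeR adjusted p = 0.537). It stood at 739, 143 and 387 CPM in STAT6-/- and at 179.5, 354 and 363 in WT. Replicate 1 was higher than all other libraries, replicate 2 was lower than all others, and replicate 3 was near WT replicates 2 and 3. Without STAT6-/- replicate 1 the log2 fold change was -0.14. Lyz2 has a close relative, Lyz1, so the division of reads between them is uncertain.

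The 6 neutrophil genes had the largest median log2 fold change of the 5 role groups in edgeR with all libraries, 2.35, but the monocyte and integrin median was larger in 4 of 16 alternatives. These were a filter of 1 CPM in 3 libraries (1.92 against 1.85), log2 FPKM plus 1 (1.30 against 1.11), and the fits without STAT6-/- replicate 1 (1.90 against 1.84) or WT replicate 3 (1.91 against 1.85). The filter of 1 CPM removed Trem1 and Clec4e, so its neutrophil median is over fewer genes. Of the neutrophil genes 0 of 6 passed the edgeR test, with 2 at an unadjusted p under 0.05 (40.3% of all tested genes). DESeq2 called 2 (Csf3r and Clec4e), against 18.1% of all genes higher. The 6 neutrophil genes stood at 34.7 CPM or less in every library. Per transcript length they were not all low, since S100a8 and S100a9 averaged 21.2 and 16.8 FPKM, against 14.3 for Csf1r. S100a8, a calcium-binding alarmin, stood at 19.1, 1.88 and 16.5 CPM in STAT6-/- and at 6.48, 0.248 and 0.510 in WT (log2 fold change 2.37 ± 1.26, edgeR adjusted p = 0.201). Its partner S100a9 stood at 15.1, 1.83 and 19.2 CPM against 13.1, 0.620 and 0.680 (log2 fold change 1.32 ± 1.28, edgeR adjusted p = 0.466). WT replicate 1 was thus far above the other WT libraries for both, and STAT6-/- replicate 2 was far below the other STAT6-/- libraries. Without WT replicate 1 the fold changes on the log2 scale were 5.0 for S100a8 and 4.19 for S100a9 (edgeR adjusted p = 0.0510 and 0.0605), and the median of the 6 neutrophil genes was 3.86. Other omissions lowered these values: S100a9 stood at 0.79 without WT replicate 2 or 3 and at 0.85 without STAT6-/- replicate 3, and the neutrophil median was 1.84 without STAT6-/- replicate 1 and 1.89 and 1.85 without WT replicates 2 and 3.

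Per transcript length, S100a8 stood at 57.9, 5.16 and 44.2 FPKM in STAT6-/- and at 17.7, 0.630 and 1.45 in WT, and S100a9 at 32.5, 3.56 and 36.5 against 25.5, 1.12 and 1.37. The 2 genes, whose products form the heterodimer calprotectin, ranked the 6 libraries in the same order but for STAT6-/- replicates 1 and 3. Csf3r, the G-CSF receptor, had the largest log2 fold change of all 32 genes in edgeR with all libraries, with 23.3, 3.24 and 34.7 CPM in STAT6-/- and 6.25, 1.30 and 2.15 in WT (log2 fold change 2.65 ± 0.91, edgeR adjusted p = 0.0752). DESeq2 called it, as did edgeR without STAT6-/- replicate 2 (edgeR adjusted p = 0.0122).

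Trem1 and Clec4e, an amplifier of inflammatory signals and the glycolipid receptor Mincle, are also made by activated monocytes and macrophages. They had only 17 and 21 counts over the 3 WT libraries and 104 and 150 over the 3 STAT6-/- libraries, with a log2 fold change of 2.34 for Trem1 and 2.54 for Clec4e (edgeR adjusted p = 0.187 and 0.103). Cxcr2, the chemokine receptor that draws neutrophils to CXCL1 and CXCL2, had the smallest difference of the neutrophil genes. It stood at 11.1, 12.4 and 17.5 CPM in STAT6-/- and at 13.9, 8.87 and 9.69 in WT (log2 fold change 0.34 ± 0.27, edgeR adjusted p = 0.383). Its libraries lay within a narrow range and the genotypes overlapped, whereas S100a8 ran from 0.248 to 19.1 CPM.

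**Figure D3:**
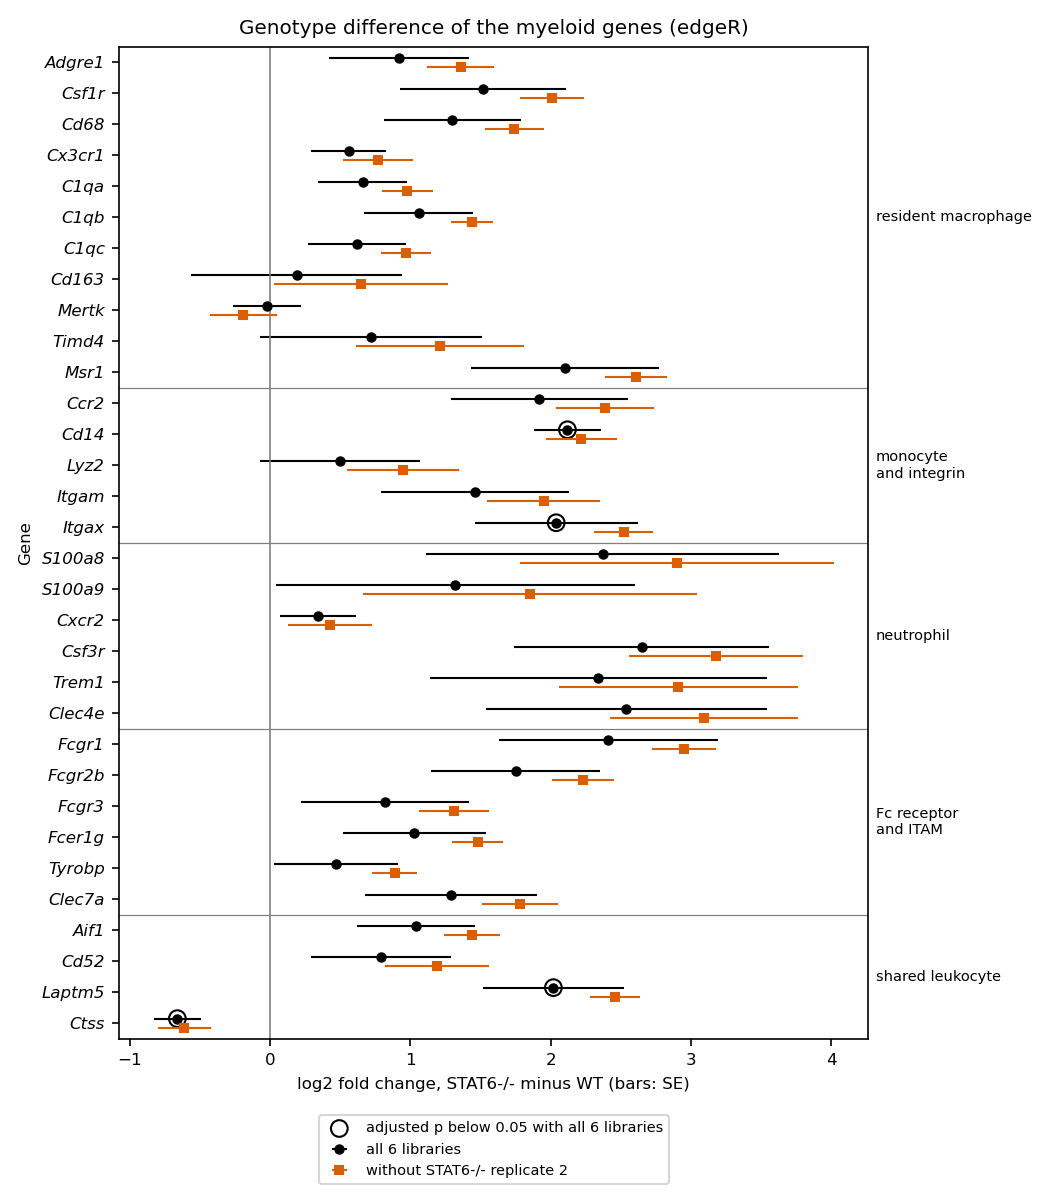
Log2 fold change of each gene, STAT6-/- minus WT, with its SE: black circles from all 6 libraries and orange squares without STAT6-/- replicate 2, with rings on the 4 genes called from all libraries. Without that replicate the values move right and the bars become shorter for most genes, and S100a8 and S100a9 keep the widest bars.

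Fc receptors bind antibody-coated particles, and FCER1G and TYROBP are the membrane adaptors that carry the ITAM for many of the activating receptors. In these 6 genes 0 passed the edgeR test, 2 had an unadjusted p under 0.05 (40.3% of all tested genes), and the median log2 fold change was 1.16. DESeq2 called 2 (Fcgr1 and Fcgr2b), against 18.1% of all genes higher. Fcgr1, the high-affinity IgG receptor, had the largest value, with 18.4, 2.04 and 23.3 CPM in STAT6-/- and 2.42, 2.91 and 2.89 in WT (log2 fold change 2.41 ± 0.78, edgeR adjusted p = 0.0639). Fcgr2b, the inhibitory IgG receptor that B cells also make, stood at 58.4, 11.7 and 75.5 CPM against 13.7, 12.0 and 17.7 (log2 fold change 1.75 ± 0.60, edgeR adjusted p = 0.0764). For all 6 genes replicates 1 and 3 were above every WT library and replicate 2 was below every WT library.

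Tyrobp was the most abundant of the 6 per length (48.1 FPKM) and had the smallest difference, with 37.9, 11.8 and 43.8 CPM in STAT6-/- and 19.8, 25.2 and 22.3 in WT (log2 fold change 0.47 ± 0.44, edgeR adjusted p = 0.448). Fcer1g, at 29.7, 7.41 and 35.0 CPM against 12.2, 10.7 and 12.4, and Fcgr3, an activating IgG receptor, at 32.5, 6.37 and 41.2 against 11.0, 16.2 and 18.0, repeated that order. Clec7a, the beta-glucan receptor dectin-1, which carries an ITAM-like motif of its own, stood at 22.2, 4.85 and 33.1 CPM against 7.19, 7.19 and 10.1. Without STAT6-/- replicate 2 all 6 were called higher, against 17.9% of all genes in that fit, with log2 fold changes from 0.89 for Tyrobp to 2.95 for Fcgr1. Replicate 2 was the lowest library for all 6, so leaving it out favoured such calls. None of the 6 was called by edgeR with any other single library left out. Fcgr2b and Fcgr3 are close relatives, so the division of reads between them is uncertain.

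In the 4 genes shared among leukocytes, Laptm5 rose and Ctss fell, while 11.4% of all tested genes were called higher and 11.5% lower. An unadjusted p under 0.05 in edgeR was seen for 3 of 4 (40.3% of all tested genes). Aif1, the macrophage protein also called IBA1, stood at 25.2, 7.67 and 21.2 CPM in STAT6-/- and at 8.43, 9.86 and 7.93 in WT (log2 fold change 1.04 ± 0.42, edgeR adjusted p = 0.112). Cd52, a small surface glycoprotein that lymphocytes make as well, stood at 86.8, 20.5 and 36.8 CPM against 29.8, 32.8 and 20.9 (log2 fold change 0.79 ± 0.50, edgeR adjusted p = 0.273). In Aif1, Cd52 and Laptm5 STAT6-/- replicate 1 was the highest library, as it was for Adgre1, Cd14, Lyz2, S100a8 and Clec4e. These are 8 of the 32 genes, while replicate 3 was the highest for 22.

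Genes that act around these cells were counted from lists chosen for their role. For comparison, edgeR with all libraries called 11.4% of all tested genes higher and 11.5% lower. The lists differ in length, and their counts were not tested. Among colony-stimulating factors and their receptors 2 of 7 tested rose: Csf2rb, the beta chain shared by the receptors for GM-CSF, interleukin-3 and interleukin-5, and Csf2rb2, a second interleukin-3 receptor beta chain of mice. Csf2rb stood at 72.4, 11.0 and 65.4 CPM in STAT6-/- and at 7.19, 6.08 and 7.37 in WT, a 7.20-fold rise (edgeR adjusted p = 0.0260), and Csf2rb2 rose 7.36-fold (edgeR adjusted p = 0.0271). Replicate 2 was above the WT libraries for both, though far below replicates 1 and 3. These chains are close relatives, so the division of reads between them is uncertain. The most abundant gene of that list, Kitl, the stem cell factor, had a log2 fold change of -0.53 ± 0.30. Csf3, the gene of G-CSF, was at 0 in 3 libraries and was not tested.

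Of the chemoattractants and their receptors 1 of 8 tested rose. Ccl7, a chemokine that acts on CCR2, stood at 20.3, 4.12 and 26.8 CPM in STAT6-/- and at 1.12, 0.806 and 1.70 in WT, a 14.0-fold rise (edgeR adjusted p = 0.0172). Replicate 2 was above the WT libraries here. Cx3cl1, the ligand of the receptor that Cx3cr1 encodes and the most abundant gene of the list, had a log2 fold change of 0.31 ± 0.28. Cxcr1 was at 0 in 5 libraries, and 6 of the 14 listed genes had too few counts to be tested.

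Of 10 tested myeloid transcription factors 3 rose. Spi1, which encodes PU.1, stood at 37.9, 6.84 and 31.2 CPM in STAT6-/- and at 4.54, 2.73 and 6.40 in WT, a 5.54-fold rise (edgeR adjusted p = 0.0359). Irf8, a regulator of monocyte and dendritic cell fate that interferon-gamma induces, stood at 301, 119.7 and 179.9 CPM against 37.0, 45.1 and 23.9, a 5.67-fold rise (edgeR adjusted p = 0.0129). Cebpb, a factor of myeloid maturation and acute inflammation, rose 2.27-fold (edgeR adjusted p = 0.0435). Klf4, abundant in colon epithelium, had a log2 fold change of 0.39 ± 0.19.

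Of the kinases and receptors that act downstream of ITAM adaptors or beside them, 6 of 16 rose, and the median log2 fold change was 1.63. Syk, the kinase that docks on the ITAM, stood at 193, 97.1 and 163 CPM in STAT6-/- and at 31.5, 38.2 and 37.4 in WT, a 4.22-fold rise (edgeR adjusted p = 0.00971). The Src-family kinases Lyn and Fgr rose 2.17-fold and 7.32-fold (edgeR adjusted p = 0.0199 and 0.0296). Ptpn6, the phosphatase SHP-1 and the most abundant of the list, had a log2 fold change of 1.03 ± 0.45 (edgeR adjusted p = 0.133). Replicate 2 was above every WT library for the 6 called genes of this list. It was below every WT library for Trem2, Clec4d, Clec4n and Sirpa, and within the WT range for the other uncalled genes. For the 6 Fc receptor and ITAM genes described above, none of them called, it was also below every WT library.

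In the phagocyte NADPH oxidase list 2 of 6 rose. Cyba, its p22 subunit, stood at 112, 106 and 106 CPM in STAT6-/- and at 58.2, 57.4 and 46.3 in WT, a 2.00-fold rise shared by replicate 2 (edgeR adjusted p = 0.0110), and Ncf4 rose 4.19-fold (edgeR adjusted p = 0.0253). Of 9 other neutrophil genes tested, Mmp25 and Retnlg rose, at 6.87 CPM or less in every library. Ly6g, the gene behind the usual neutrophil antigen, was the most abundant of them and ran from 267 to 1304 CPM. Its log2 fold change was 1.24 ± 0.42 (edgeR adjusted p = 0.0696), and it had a mean of 608 FPKM against 21.2 FPKM for S100a8. Ly6g has close relatives in its family, so its reads are uncertain. The granule genes Elane, Mpo, Ngp and Camp stood at 0.466 CPM or less in every library, with Elane at 0 in 5. Not all granule genes were this low, and Mmp9 ran from 1.98 to 11.7 CPM. Ltf, the granule protein lactoferrin, stood at 28.4, 33.9 and 45.6 CPM in STAT6-/- and at 371, 1.18 and 0.453 in WT (log2 fold change -1.79 ± 1.88, edgeR adjusted p = 0.502), with WT replicate 1 far above all other libraries. Padi4, which citrullinates histones, was also highest in WT replicate 1, at 45.1 CPM against 1.49 to 11.7 in the other 5 libraries (log2 fold change -1.43 ± 0.87, edgeR adjusted p = 0.257). Of 14 other macrophage and monocyte genes tested, 3 rose: Ly6c2, a surface antigen of inflammatory monocytes, by 3.62-fold, Plac8 by 2.09-fold and Mpeg1, a pore-forming macrophage protein, by 4.01-fold (edgeR adjusted p = 0.0219, 0.0325 and 0.0496). Plac8 was also the most abundant. For Mpeg1, STAT6-/- replicate 2 (29.5 CPM) was below the WT libraries (29.6 to 30.8 CPM), and the call held in 5 of 16 alternatives. Of the 14, 4 had log2 fold changes below 0 and were not called: Vsig4 (-1.84), F13a1 (-0.80), Folr2 (-0.63) and Lyve1 (-0.20).

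Markers of other leukocytes varied between the libraries together with the myeloid genes, and their part in the results was not tested. The summed level of 9 pan-leukocyte genes was 956, 147 and 486 CPM in STAT6-/- replicates 1 to 3 and 179 to 191 CPM in WT, with 1 of 9 (Coro1a) called higher. T cell markers summed to 132, 21.3 and 51.8 CPM against 21.0 to 25.4 in WT (3 of 9 higher: Zap70, Cd2 and Cd3e), and dendritic cell markers to 64.1, 13.9 and 36.8 CPM against 12.3 to 16.4 (3 of 9 higher: Batf3, Clec9a and Flt3). The log2 fold change was above 0 for 8 of the 9 dendritic cell markers. Siglech went the other way, with 1.86, 1.10 and 1.48 CPM in STAT6-/- and 2.36, 3.78 and 3.46 in WT (log2 fold change -1.11, edgeR adjusted p = 0.0648). B cell markers summed to 284, 24.3 and 49.9 CPM against 28.8 to 44.7, with 0 of 6 called by edgeR and 1 at an unadjusted p under 0.05. Replicate 1 was thus the highest library for these 4 lists, and replicate 2 was within or below the WT range for all of them.

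The myeloid sums were also set against the pan-leukocyte sum of the same library. The summed resident macrophage genes were 0.660, 1.72 and 1.45 times the pan-leukocyte sum in STAT6-/- replicates 1 to 3 and 1.38, 1.58 and 1.86 times in WT replicates 1 to 3. For the neutrophil genes the ratios were 0.0792, 0.134 and 0.191 against 0.228, 0.0596 and 0.0741. The groups overlapped in both ratios, and replicate 1 had the lowest macrophage ratio of all libraries. They overlapped too for the monocyte and integrin genes (1.17, 2.72 and 1.62 against 1.48, 2.33 and 2.44) and for the Fc receptor and ITAM genes (0.208, 0.301 and 0.518 against 0.366, 0.388 and 0.467). For the shared leukocyte genes, whose sum Ctss leads, the ratios were 0.634, 2.64 and 1.15 against 2.98, 3.35 and 3.20, lower in all 3 STAT6-/- libraries.

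Tissue layers differed between the libraries as well. All 5 smooth muscle markers were called lower in STAT6-/-, with sums of 1989, 3054 and 4626 CPM against 8171 to 9993, and all 3 tested adipocyte markers were called lower, with sums of 7.51 to 20.8 CPM against 40.1 to 232 and Plin1 at 0 in STAT6-/- replicate 2. Epithelial markers summed to 17543, 22652 and 28873 CPM against 16505 to 21961, with 2 of 10 higher (Vil1 and Krt20) and 9 of 10 with a log2 fold change above 0. Lgals4, the most abundant of them per length (3593 FPKM), was lower in every STAT6-/- library. It stood at 2381, 4429 and 4214 CPM against 6227, 7783 and 6775 in WT (log2 fold change -0.92, edgeR adjusted p = 0.0692). Fibroblast markers summed to 908 to 3591 CPM against 2219 to 6158, with Lum of 6 lower, and endothelial markers to 64.2 to 157 CPM against 45.6 to 88.6, with Vwf of 7 higher. The log2 fold change was above 0 for 5 of the 7 endothelial markers and below 0, not called, for Tek (-0.99) and Emcn (-0.82). Mast cell and eosinophil markers summed to 35.7 to 109 CPM against 34.2 to 40.9, with Ccr3 of 6 higher. Of the 39 genes called in these 17 lists, DESeq2 also called 39, and 0 were called by edgeR without WT replicate 2 or without WT replicate 3. The same genes numbered 9, 35, 22 and 11 without STAT6-/- replicates 1, 2 and 3 and WT replicate 1.

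**Figure D4:**
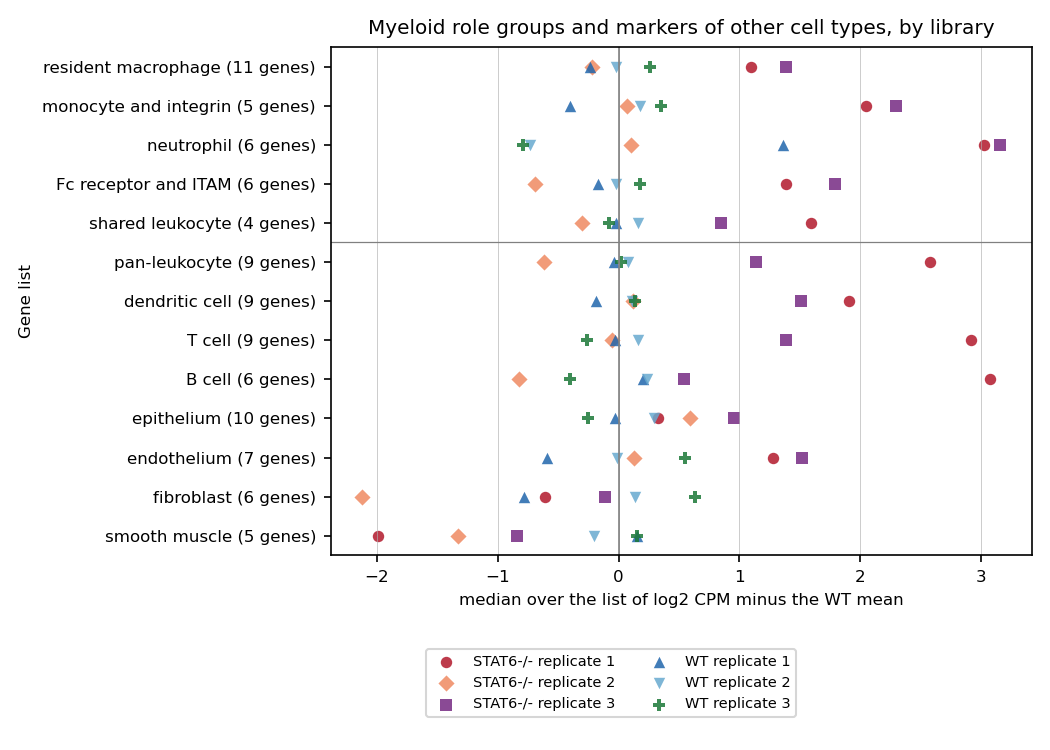
For each list, the median over its tested genes of log2 CPM minus the WT mean, 1 symbol per library: the 5 myeloid role groups above the line, markers of other cells below. STAT6-/- replicates 1 and 3 stand at 0.85 to 3.16 for the myeloid groups and replicate 2 at -0.69 to 0.10, while WT replicate 1 stands at 1.36 for the neutrophil genes.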

How the data were processed

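Colon RNA was sequenced in 6 libraries, 3 per genotype, grouped by the labelled genotype. The submitters' processing notes name Bowtie2 2.2.5, RSEM 1.2.12 and mm10. The authors deposited expected counts and FPKM per transcript, per the file headers. The lowest FPKM listed was 0.01, and unlisted transcripts counted as 0 in that library. Of 28238 transcripts, 27986 were matched to gene symbols through RefSeq (GRCm38.p6) and 149 through GENCODE, and 103 (0.167% of counts) had no symbol and were kept as entries of their own.

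The expected counts were summed per gene and rounded. edgeR 4.0.16 (TMM factors, default count filter, robust quasi-likelihood test, all 6 libraries, Benjamini-Hochberg over 15066 genes) gave fold changes, with calls at an adjusted p below 0.05. FPKM served to compare levels between genes. The main edgeR fit alone was tested on simulated data with 200 changed genes and the same spread for all genes. It called 9.00% of 2-fold and 88.9% of 4-fold changes, and 4 of its 101 calls were false. At that spread and with so few changed genes, most 2-fold changes were not called. In the data 22.9% of tested genes were called and the spread differed between genes, so these rates do not carry over to the data. Alternatives used DESeq2 1.42.0, limma 3.58.1, other scalings and filters, a replicate block, and each library left out. Fits with GC content and length trends removed were added after seeing the data.

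The 32 genes and all lists were chosen with earlier results of these data known. Values by library are given for called genes and for the most abundant and the largest and smallest changes of each role group. In the other lists of myeloid genes the most abundant gene and, by p, the first 3 called genes are named. In the lists of other cell types the called genes are named or counted. Some further genes were named after their values were seen.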

Additional observations from a re-analysis of the deposited data

How the results depend on the processing

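The number of the 32 myeloid genes called higher, 3, was 12 with DESeq2, 1 with limma-voom, 1 with limma on log2 FPKM plus 1 and 1 with GC content and length trends removed, and ran from 0 to 22 with single libraries left out. The number called lower, 1, was 0 with those trends removed and 0 with no filter on low counts, and ran from 0 to 1 with single libraries left out. Over all genes, DESeq2 called 2713 higher against 1718, removing the trends left 1023 lower against 1731, and leaving out single libraries gave 12 to 2750 higher and 6 to 2440 lower. The median log2 fold change of the resident macrophage genes ran from 0.46 to 1.21 with single libraries left out, and that of Stat6 from -1.06 to -0.85, not called by edgeR without WT replicate 2 or 3. Of 510 values of single myeloid genes over 16 alternatives, 443 kept direction and side of the threshold, 29 passed it only in the alternative, 27 passed it only with the original settings and 11 changed sign. Those were Cd163 (-0.22 with limma-voom, -0.16 with the replicate block, -0.99 without STAT6-/- replicate 3, -0.08 without WT replicate 1, range with single libraries left out -0.99 to 0.65), Mertk (0.04 with library size only, 0.02 with log2 FPKM, 0.02 with no filter, 0.00 and 0.22 without STAT6-/- replicates 1 and 3, 0.10 without WT replicate 3, range -0.19 to 0.22) and Lyz2 (-0.14 without STAT6-/- replicate 1, range -0.14 to 0.95). The cause of these changes was not tested.

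Whether the replicate numbers pair the libraries is not stated and could not be decided from 3 libraries per genotype. Same-numbered libraries correlated by 0.023, 0.044 and 0.134 in their deviations from the genotype means, and 4 of 6 libraries correlated best with their own number. These correlations were small, and deviations from a shared genotype mean depend on each other, so the matches are not independent. They do not show whether the libraries are paired. With the number as a block, 2 of the 32 genes were called higher (Cd14 and Csf3r) and 0 lower by edgeR, with 11 at an unadjusted p under 0.05. The block ended the calls of Itgax, Laptm5 and Ctss (edgeR adjusted p = 0.0995, 0.0576 and 0.0662), and 1219 and 1445 of all genes (8.09% and 9.59%) were called higher and lower. The main limits are 3 libraries per genotype, the confounding of genotype with sex, and neutrophil genes with few counts, such as Trem1 with 17 and Clec4e with 21 over the 3 WT libraries.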
